A study of Caenorhabditis elegans with 2 samples.

Results

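Nuclear pore and nuclear transport genes of the nematode Caenorhabditis elegans were examined for TBX-7 occupancy of their promoters. They were picked out by symbol, as the protein-coding genes of the WBcel235 annotation whose symbols start with npp-, imb-, ima-, ran- or xpo-. This gave 40 genes of 19973 on the nuclear chromosomes, 26 of them npp- genes and 14 import, export or Ran genes. The gene set was chosen with earlier results of these data known. TBX-7 is a T-box transcription factor, and its binding was profiled by chromatin immunoprecipitation and sequencing in whole late embryos of hermaphrodite strain OP311, taken 3 h after eggs were bleached for synchronization. Animals of this strain stably express TBX-7 with GFP and FLAG at its C terminus from a transgene, so the tagged copy was measured, and the antibody was against GFP, per the sample descriptions. The study held 1 group with 2 biological replicates, so no comparison between conditions was possible and no test between groups was made. Animals were whole, so the cells in which a promoter was occupied cannot be told apart.

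The nuclear pore complex is the channel of the nuclear envelope through which proteins and RNA pass. Its scaffold is built from a Y-shaped complex and an inner ring of nucleoporins, held in the membrane by transmembrane nucleoporins, while nucleoporins rich in phenylalanine-glycine repeats fill the channel and carry filaments on the cytoplasmic side and a basket on the nuclear side. Importins and exportins carry cargo through it, and the small GTPase Ran gives the direction, since its exchange factor sits on chromatin and its activating protein in the cytoplasm. In the early embryo of the worm the complex is taken apart and rebuilt at each division, and many of these genes are needed for embryos to survive.

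A summit is the position of highest signal in a peak, and the promoter of a gene was taken to begin 1000 bp before its start and to end 200 bp inside it. In the authors' final list, which kept peaks that passed a test of the irreproducible discovery rate (IDR) between replicates, 4 of the 40 genes had a promoter summit: npp-6, npp-12, npp-8 and npp-13. That share was 10% (exact 95% interval 2.79 to 23.7%), against 3.11% of the 19933 other protein-coding genes, and the interval contains the share of the other genes. Counting a summit for its closest gene start alone left 2 of the 4 genes, npp-8 and npp-13, against 2.11% of other genes. Genes with weaker peaks were more frequent. The pooled list holds 8759 mostly weak peaks called on both replicates together before the IDR test. By its deposited name it holds background as well as peaks, and 905 of its entries had a −log10 q of at least 2. In this list 18 of 40 genes had a promoter summit (45%, exact interval 29.3 to 61.5%), against 15.7% of other genes. In the list of replicate 1 they numbered 29 (72.5%, 56.1 to 85.4%, against 24.6%), and in that of replicate 2 they numbered 15 (37.5%, 22.7 to 54.2%, against 16.3%). Lower ends of these 3 intervals lie above the shares of the other genes.

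When only peaks with a −log10 q of at least 2 were counted, 6 genes remained in the pooled list (15% against 3.69%), 9 in replicate 1 (22.5% against 4.1%) and 5 in replicate 2 (12.5% against 2.8%). The shares among pore and transport genes were thus 2.3 to 5.49 times those of other genes over the 7 counts. The lists hold the same reads in part, so the 7 counts are not independent of each other. Intervals take genes as independent and cover counting error only, and no test of the gene set was made. They do not cover the choice of the set, made with earlier results of these data known. Among other genes that carry a symbol of letters and a number, as all 40 do, the shares were 3.81% in the IDR list and 18.5% in the pooled list.

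**Figure D1:**
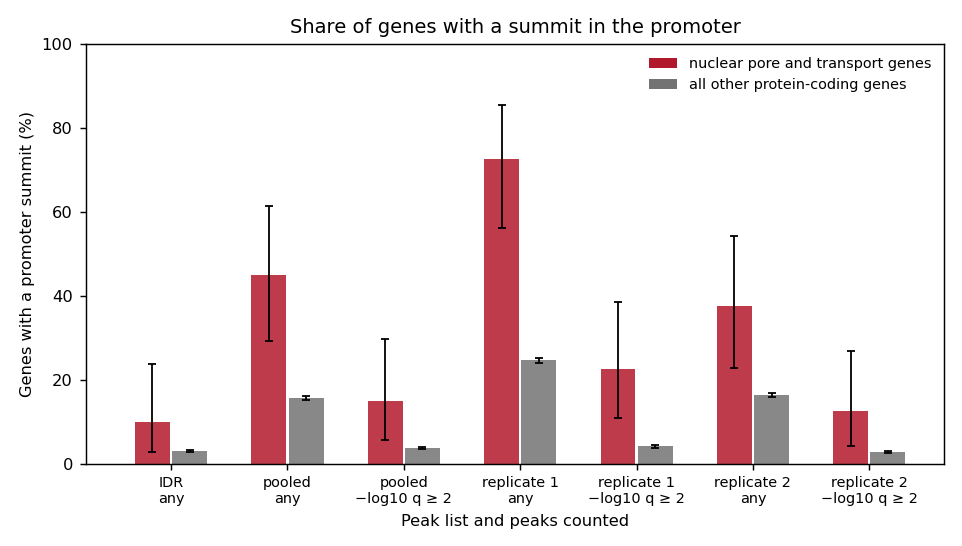
Bars give the percent of genes with a summit in the promoter, for the 40 nuclear pore and transport genes (red) and the 19933 other protein-coding genes (grey), by peak list and by whether all peaks or those with a −log10 q of 2 or more were counted. Error bars are exact 95% binomial intervals. The red bar is the taller in all 7 pairs, and in the IDR pair, at 10% against 3.11%, its interval reaches down to 2.79%.

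Sequence at the summits is shown for 5 of these genes, so that an IDR site that holds several of the words searched can be read beside weaker sites at genes of related role: npp-8, which has an IDR summit, the other inner ring genes npp-3 and npp-19, the channel gene npp-1, and the exportin gene xpo-1. Each window reaches 50 bp to either side of the strongest pooled summit and is written 5′ to 3′ on the strand of the gene, from the RefSeq sequence of WBcel235 (ce11). Capitals mark the 5 words searched, on both strands. Of these, AGGTGTGA is the T-box word and GGTGT its core, which lies within it. The remaining words were CTGCGTC together with CCGCCC and also with CGCGAAA, and none of these is contained in another word.

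npp-8 (chrIV:1595924-1596024, minus strand): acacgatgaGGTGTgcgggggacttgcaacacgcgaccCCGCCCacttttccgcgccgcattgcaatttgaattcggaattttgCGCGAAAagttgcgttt
npp-3 (chrII:11874779-11874879, minus strand): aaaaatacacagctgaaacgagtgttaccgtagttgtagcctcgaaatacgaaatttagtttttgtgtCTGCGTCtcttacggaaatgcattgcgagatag
npp-19 (chrII:10798710-10798810, minus strand): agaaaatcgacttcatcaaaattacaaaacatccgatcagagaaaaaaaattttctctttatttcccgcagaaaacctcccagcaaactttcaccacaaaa
npp-1 (chrIV:9858247-9858347, plus strand): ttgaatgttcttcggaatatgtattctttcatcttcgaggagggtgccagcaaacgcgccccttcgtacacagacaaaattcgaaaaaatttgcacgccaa
xpo-1 (chrV:7804318-7804418, plus strand): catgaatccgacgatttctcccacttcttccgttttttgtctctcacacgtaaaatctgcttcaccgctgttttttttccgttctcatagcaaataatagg

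The npp-8 window held GGTGT once near its left end, then CCGCCC once and near its right end CGCGAAA once. In the npp-3 window the word found was CTGCGTC. No other of the 18 pooled windows of these genes held any of the 5 words, and the full T-box word was in none of the 18. Across all 690 IDR windows GGTGT occurred in 17.2%, CCGCCC in 8.7%, CGCGAAA in 4.64%, CTGCGTC in 4.35% and the full T-box word in 0%. Across the 8759 pooled windows the shares were 14.7% for GGTGT, 5.19% for CCGCCC, 2.09% for CGCGAAA, 2.99% for CTGCGTC and 0.228% for the full T-box word. A match describes the letters only, and with 4 and 18 windows the gene set was too small to set its shares against these. GC content had a median of 50.5% in the 4 IDR windows and 41.1% in the 18 pooled windows, against 48.5% over all IDR windows and 44.6% over all pooled windows.

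The inner ring genes had promoter summits in every list taken before the IDR test. They encode scaffold nucleoporins that lie between the membrane and the channel. The npp-8 gene, which encodes the worm NUP155, had its IDR summit 150 bp upstream (chrIV:1595752-1596195), with a signal of 135 at rank 343 of 690. Its signal was 77.5 in replicate 1 at rank 296 and 53.3 in replicate 2 at rank 473. Signal is on the scale of the authors' peak caller and is set within a list, and the lists differ in length, so a rank is also given as a percent of its list. The site was in the top 1.84% of replicate 1 and the top 4.81% of replicate 2, with −log10 q of 2.93 and 2.28.

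The NUP93 gene npp-13 had an IDR summit 259 bp upstream (chrI:2096865-2097308), with a signal of 126 at rank 378. Replicate 1 gave a signal of 72.1 (rank 333) and replicate 2 gave 58.6 (rank 402), with summits 259 and 253 bp upstream. These ranks were the top 2.07% and 4.09% of the lists, with −log10 q of 2.93 and 2.43. The NUP205 gene npp-3 fell just short of the IDR list. Its pooled summit, 41 bp upstream, had a signal of 82 at rank 755, and the weakest IDR peak had 86. Replicate 1 held it at rank 575 with a −log10 q of 2.36, replicate 2 at rank 2400 with 0.34, so its support came mainly from replicate 1. The NUP35 gene npp-19 had the same imbalance, with rank 902 and a −log10 q of 2.30 in replicate 1 against rank 6447 and 0.07 in replicate 2. Its strongest summits lay at different positions, 240 bp upstream in replicate 1 and 354 bp in replicate 2. All 4 inner ring genes had a −log10 q of at least 2 in replicate 1, against 4.1% of other genes, and 2 of 4 had it in replicate 2, against 2.8%. The subgroup holds 4 genes only, and its difference from other genes was not tested.

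Of the 8 Y complex genes, npp-6 alone had an IDR summit, and it was the strongest of all 40 genes. It encodes the worm NUP160, a core subunit of the complex that is placed early when pores are rebuilt. The peak (chrI:5176281-5176589) had a signal of 375, rank 30 of 690 in the IDR list. Its signal was 165 at rank 67 in replicate 1 and 207 at rank 18 in replicate 2. The replicate summits lay 401 and 409 bp upstream, and the pooled one 398 bp upstream. That position is also 223 bp downstream of the start of spd-5, a centrosome scaffold gene on the opposite strand, inside an intron of spd-5. The summit is therefore nearer to the start of spd-5, and just outside the promoter of spd-5 as defined here.

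The other Y complex genes had weak peaks or none. The NUP85 gene npp-2 had summits in all 3 lists before the IDR test, with a pooled signal of 37.2 at rank 5772 and −log10 q from 0.10 to 0.31. The NUP133 gene npp-15 was at rank 7534 of the pooled list and 12754 of replicate 1, and had none in replicate 2. Both npp-5, which encodes NUP107, and the SEC13 gene npp-20 had a summit in replicate 1 only, at signals of 14.2 and 15.8 where the weakest peak of that list had 14.1. The NUP96 and NUP98 gene npp-10, the SEH1 gene npp-18 and the NUP43 gene npp-23 had no promoter summit in any list.

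Among the 3 membrane nucleoporin genes, npp-12, which encodes the worm gp210, had the second strongest site of the gene set. Its IDR summit lay 620 bp upstream (chrI:6446462-6446905), with a signal of 207 at rank 148. Replicate 1 gave 99.8 at rank 180 and replicate 2 gave 108 at rank 122. The summit was 219 bp upstream of the divergent gene T23H2.3, whose start is nearer. A second and weaker summit was listed in each list before the IDR test, 419 bp upstream of npp-12 in the pooled list with a signal of 57.2. The NDC1 gene npp-22 and the gene npp-25 had a replicate 1 summit only, with −log10 q of 0.20 and 0.06.

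Genes for the channel, the cytoplasmic side and the basket, 3 of each, had no IDR summit, against 3.11% of other genes. That share is too low for counts of 0 in such small groups to set them apart. Of the 3 channel genes, npp-1, which encodes NUP54, had a summit 191 bp upstream at rank 1489 of the pooled list with a signal of 58.7. It was at rank 734 in replicate 1 with a −log10 q of 2.47, and had no summit in replicate 2. The NUP62 gene npp-11 had a weak summit in replicate 1 only (signal 19.3), and npp-4 had none. On the cytoplasmic side the NUP214 gene npp-14 had a summit in both replicates, with a pooled signal of 67.7 (rank 1065) and −log10 q of 0.92 and 1.27. These summits lay at different positions, 254 bp upstream in replicate 1 and 401 bp in replicate 2. The gene npp-9 had 1 summit at rank 16032 of the 16060 in replicate 1, and the NUP88 gene npp-24 had none. In the basket, the NUP153 gene npp-7 was at rank 3512 of the pooled list with a signal of 43.6, npp-16 had a replicate 1 summit of signal 16.9, and the TPR gene npp-21 had none. Both npp-26 and npp-27 had a replicate 1 summit only, with signals of 18 and 29.2.

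**Figure D2:**
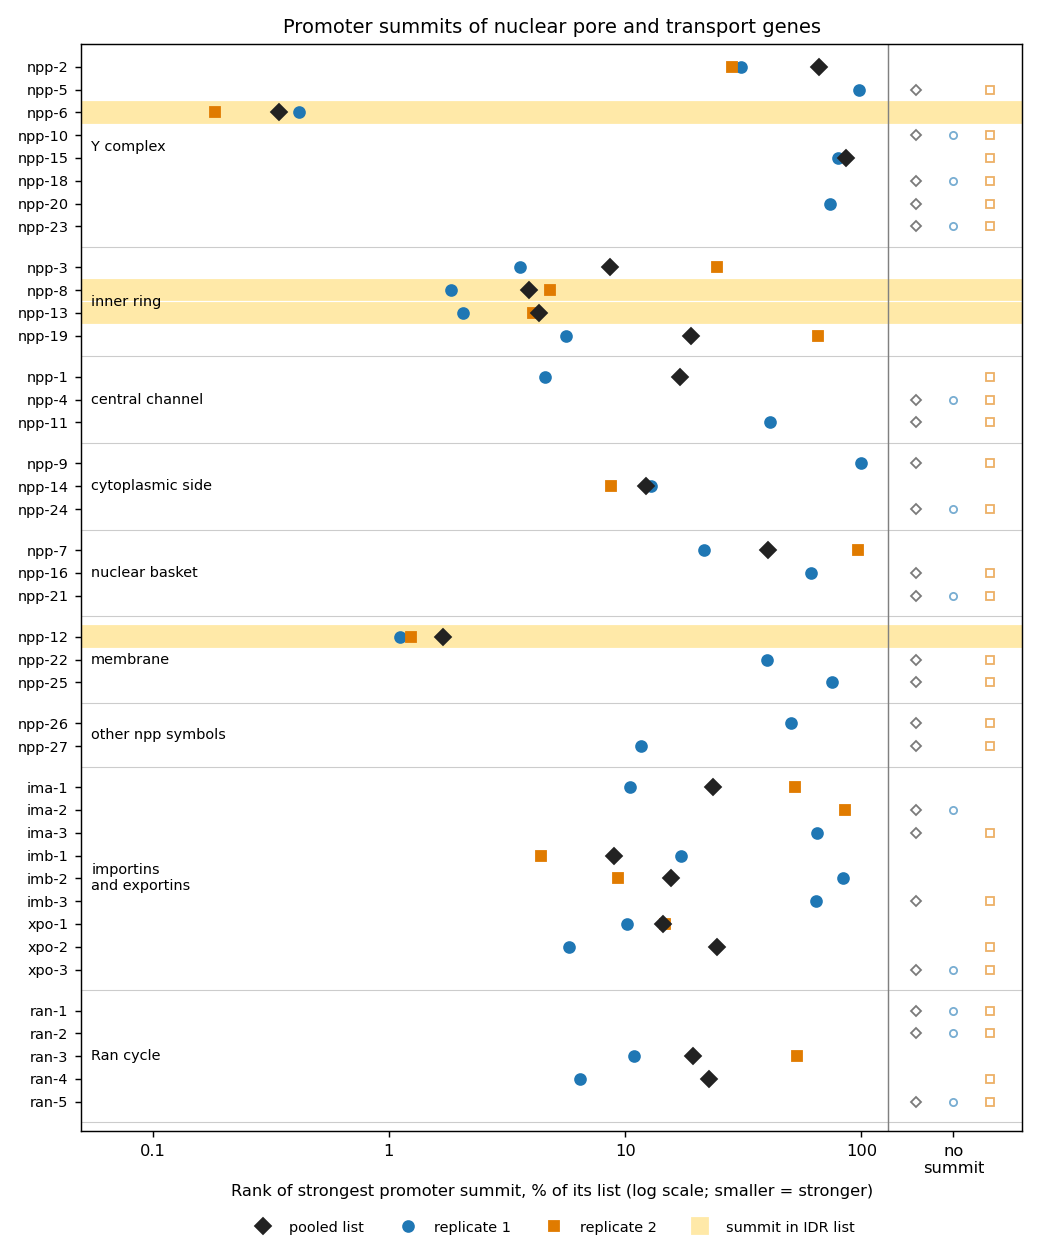
Each row is 1 of the 40 genes, grouped by role, and points give the rank of its strongest promoter summit as a percent of the pooled list (black), of replicate 1 (blue) and of replicate 2 (orange), on a log axis where smaller is stronger. Open symbols at the right stand for no summit, and yellow rows have an IDR summit. The 4 yellow rows are the leftmost, from npp-6 at rank 30 to npp-13 at rank 378 of the pooled list, and 10 rows have open symbols only.

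None of the 9 importin and exportin genes had an IDR summit, against 3.11% of other genes, a share too low for a count of 0 among 9 to set them apart. In replicate 1 a summit was listed for 7 of 9 (24.6% of other genes), and in replicate 2 for 5 of 9 (16.3%). The strongest was at imb-1, which encodes importin beta, the main carrier of protein import. Its pooled summit, 123 bp upstream, had a signal of 80 at rank 782 and a −log10 q of 2.24, just below the weakest IDR peak. Replicate 2 held it at rank 433 with a −log10 q of 2.46, and replicate 1 at rank 2767 with 0.67. Here the support came mainly from replicate 2, the opposite of npp-3. The transportin gene imb-2 was in the top 9.32% of replicate 2 (rank 917) and at 83.6% of replicate 1 (rank 13433), with a pooled signal of 60.7.

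The main exportin gene, xpo-1, which encodes the worm CRM1, had a pooled summit 696 bp upstream with a signal of 62.8 at rank 1257. Its summits in the replicates lay 581 and 764 bp upstream, at ranks 1634 and 1454, so the strongest sites stood at different positions within the promoter. The gene xpo-2, whose product returns importin alpha to the cytoplasm, was at rank 930 in replicate 1 with a −log10 q of 2.32 and had no summit in replicate 2. Of the 3 importin alpha genes, ima-1 had a pooled signal of 52.1 and −log10 q of 1.27 and 0.10 in the replicates. The genes ima-2 and ima-3 had 1 summit each, in replicate 2 (signal 20.4) and in replicate 1 (signal 16.6). The importin gene imb-3 had a replicate 1 summit of signal 16.6, and the exportin gene xpo-3 had none.

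Of the 5 Ran cycle genes 2 had any summit. Among other genes, 69.2% had no summit in any list, and with 5 genes the count was too small to set against this. The RCC1 gene ran-3, which encodes the exchange factor of Ran, was at rank 1700 of the pooled list with a signal of 55.7, with −log10 q of 1.20 in replicate 1 and 0.10 in replicate 2. The NTF2 gene ran-4, whose product brings Ran into the nucleus, was at rank 1030 of replicate 1 with a −log10 q of 2.03, and had no summit in replicate 2. The genes for Ran itself, ran-1, for its activating protein, ran-2, and for a Ran-binding protein, ran-5, had no summit in any list. In all, 0 of 14 transport genes and 4 of 26 npp- genes had an IDR summit, against 3.11% of other genes. A pooled summit was listed for 7 of 14 and 11 of 26, against 15.7% of other genes. At 3.11%, a count of 0 among 14 does not set the transport genes apart. These differences between subgroups were not tested.

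**Figure D3:**
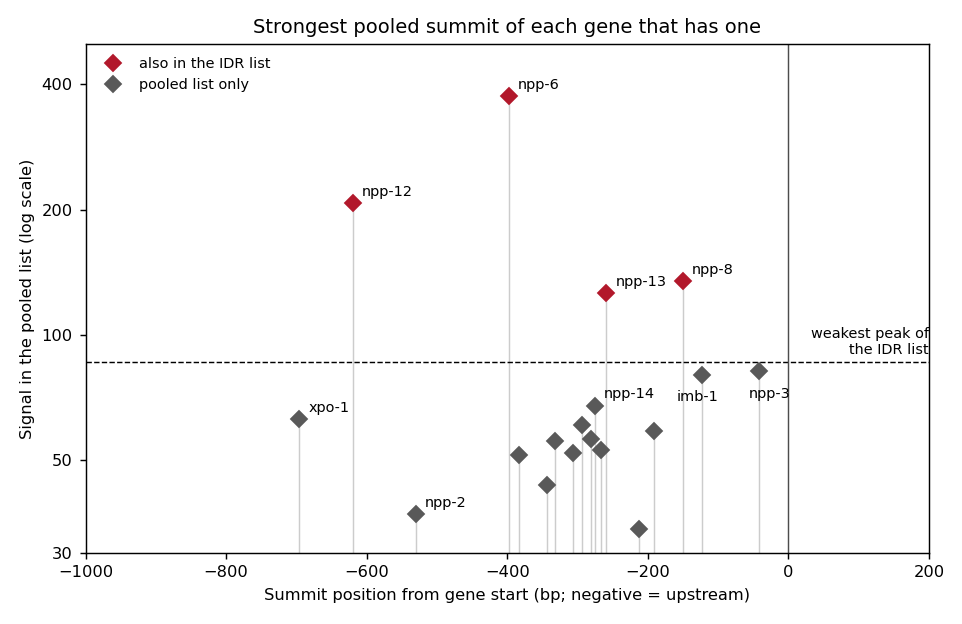
Points give the strongest pooled summit of the 18 genes that have one, by position from the gene start in bp (negative is upstream) and by signal on a log axis, in red where the summit is in the IDR list. All 18 lie upstream, from 41 bp at npp-3 to 696 bp at xpo-1. The dashed line is the weakest IDR peak, with npp-3 (82) and imb-1 (80) just under it.

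Summits lay upstream of the start at all 18 genes with a pooled summit, with a median distance of 288 bp (range 41 to 696 bp). The promoter as defined reaches 1000 bp upstream and 200 bp downstream, so most of its positions are upstream. Over the 3136 other genes with a pooled summit the median was 286 bp, with a range that reached 200 bp into the gene. For the 4 IDR genes the median was 328 bp (range 150 to 620 bp), against 244 bp for the 619 other genes with an IDR summit. In 11 of the 18 cases (61.1%) the same summit lay in the promoter of another gene, against 38.9% for other genes with a pooled summit. Among IDR summits 1 of 4 was shared (25%) against 63% for other genes, and 4 summits are too few to give an order. The npp-6 summit counted as not shared, though it lay 223 bp downstream of the spd-5 start, just past the 200 bp limit. For 9 of 18 (50%) the start of the gene itself was the nearest, against 76.4% for other genes. The neighbours include top-2, the DNA topoisomerase II gene, beside npp-3, the mRNA capping enzyme gene cel-1 beside npp-14, and the katanin gene mei-1 beside npp-2. The others were mfsd-13.1 with imb-1, uvs-1 with xpo-1, nol-14 with xpo-2, dvc-1 with ima-1, C26D10.3 with ran-3, C29E4.13 with npp-15, unc-40 with npp-7 and T23H2.3 with npp-12. A summit between paired genes cannot be given to either of them from these lists. The 4 IDR summits were all different. None of the 18 pooled summits lay within 200 bp of a gene for a ribosomal RNA, tRNA, snRNA or snoRNA. The same count was not made for summits of other genes, so nothing is read from it.

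Many of the genes have a divergent neighbour, and genes with one had summits more often in the genome as a whole. A start on the opposite strand lay within 1000 bp upstream for 20 of 40 genes (50%), against 17.7% of other genes. Among genes with such a neighbour, 2 of 20 had an IDR summit (10%, against 9.07% of the other genes with one) and 11 of 20 a pooled summit (55% against 28.8%). With no such neighbour but a gene on the same strand ending within 1000 bp upstream, 0 of 10 had an IDR summit (1.95% of other genes) and 2 of 10 a pooled one (20% against 13.4%). With neither, 2 of 10 had an IDR summit (20% against 1.75%) and 5 of 10 a pooled one (50% against 12.6%). In the divergent class the IDR share was close to that of other genes with the same arrangement. The part of gene arrangement in the counts over all 40 genes was not tested. The ran-2 start follows the end of npp-15 by 480 bp on the same strand. By chromosome, 13 of the 40 genes were on I, with 3 of the 4 IDR summits, where 3.91% of other genes had one.

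The replicates differed in how many of these genes they listed. Both replicates listed a promoter summit for 14 of 40 genes (35%), against 10.5% of other genes. All 14 also had a pooled summit, as did 1951 of the 2097 other genes with both. Replicate 1 alone listed 15 (37.5% against 14.1%) and replicate 2 alone listed ima-2 only (2.5% against 5.78%). No list held a summit for 10 genes (25% against 69.2%). The replicate 1 list is the longer, with 16060 peaks against 9840. With its 9840 strongest peaks it held summits for 20 of the genes (17.5% of other genes), a length chosen after these counts were seen. The strongest summits of both replicates were within 100 bp of each other for 10 of the 14 genes (71.4%), against 68.3% of the other genes with both. They were farther apart for npp-2, npp-14, npp-19 and xpo-1. A −log10 q of at least 2 in both replicates was reached by the 4 IDR genes and no other of the 40, against 2.57% of other genes. In 1 or more of the 3 lists before the IDR test that level was reached by 10 genes, against 4.4% of other genes.

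**Figure D4:**
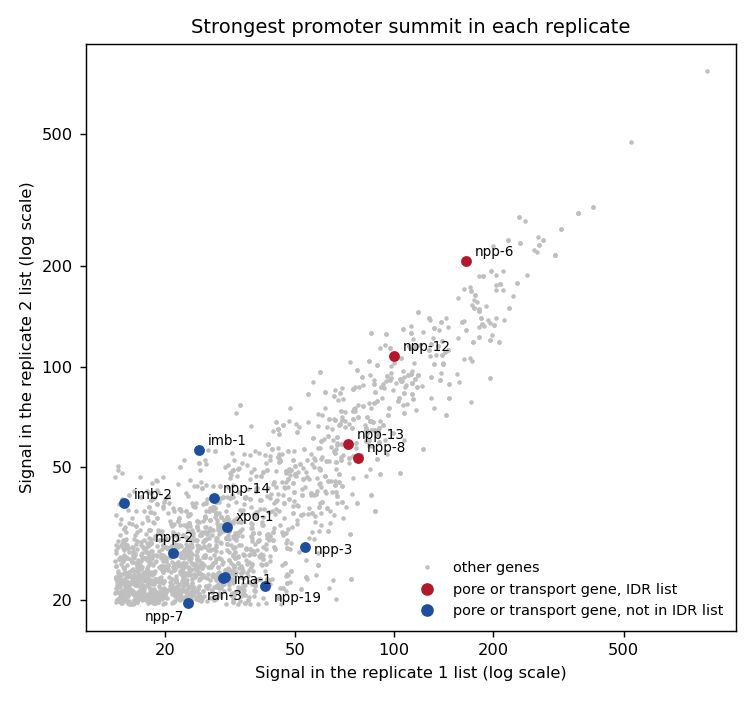
Each point is a gene with a promoter summit in both replicates, by the signal of its strongest summit in replicate 1 (x) and replicate 2 (y), both on log axes, with 2097 other genes in grey and 14 nuclear pore and transport genes in colour, red where the summit is in the IDR list. The red points run from npp-8 (77.5 and 53.3) and npp-13 to npp-6 (165 and 207). Of the blue points, imb-1 (56.2) is the highest in replicate 2, followed by npp-14 (40.3) and imb-2 (39.1), and npp-3 (53.5) and npp-19 (40.3) are the highest in replicate 1.

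Genes of the nuclear envelope and of RNA export outside these symbols were counted in the same way. Of 40 matched genes in 3 lists, 2 had an IDR summit (5%, against 3.11% of other genes). One was lem-2, which encodes a LEM domain protein of the inner nuclear membrane (chrII:14063032-14063438), with a summit 203 bp upstream and a signal of 334 at rank 44. Its signal was 164 in replicate 1 and 171 in replicate 2. The other was thoc-5, which encodes a subunit of the THO complex of mRNA export (chrIII:5349327-5349579), with a summit 51 bp upstream and a signal of 326 at rank 55. Its signal was 199 in replicate 1 and 125 in replicate 2. No other protein-coding gene had either summit in its promoter. By list, 1 of 16 nuclear envelope and lamina genes, 1 of 16 mRNA export genes and 0 of 8 SUMO pathway genes had an IDR summit. In the pooled list 9 of these 40 genes had a summit (22.5%, against 15.7% of other genes).

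A further pore gene, rae-1, encodes the mRNA export factor RAE1 and is also known as npp-17. By role it was placed on the cytoplasmic side. The annotation lists it as rae-1, so the choice by symbol left it out of the 40 genes, and it was in none of the 3 lists. It had an IDR summit 115 bp upstream (chrI:10025959-10026202), with a signal of 285 at rank 76, and no other protein-coding gene had that summit in its promoter. Its signal was 144 in replicate 1 and 140 in replicate 2. With rae-1 counted as a pore gene, 5 of 41 genes had an IDR summit, 19 a pooled one, 30 one in replicate 1 and 16 one in replicate 2. The shares of other genes in these lists were 3.1, 15.7, 24.6 and 16.3%. The gene rae-1 was added after its values were seen.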

How the data were processed

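Peaks were examined in 4 narrowPeak lists on ce11: 1 per replicate, 1 pooled and 1 after the IDR test. Per the metadata deposited with each sample, replicate lists came from the alignment of a replicate against 1 control alignment, the same for both, the pooled list from both, and the IDR list from these 3. The IDR list equals the 690 strongest pooled peaks. Column 7 holds the signal deposited by the authors, and column 9 the −log10 of the q-value, as deposited by the authors. The aligner, the peak caller and their versions are not given in the sources used here. Read depth is unknown. The ce10 lists and control reads were not used here. Most pooled peaks (97.9%) are 444 bp wide, and such widths limit how exactly a summit is placed.

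Summits (start plus the offset in column 10) were placed on Ensembl release 115 gene starts with Python 3.11.15 and NumPy 2.4.6, and coordinates are 1-based. Exact Clopper-Pearson 95% intervals came from SciPy 1.17.1. Roles and pathway lists were written by gene; 40 of 41 pathway genes matched. The rule for named genes took every member with an IDR summit, then up to 10 others by pooled signal with summits in the pooled and both replicate lists, members with no summit, and pathway genes with an IDR summit. The remaining members were named to account for all 40, after their values were seen. Members and lists were chosen with earlier results of these data known, and the neighbour classes, chromosome counts and the count of genes with letter-and-number symbols were added after values were seen. The script was checked on simulated summits. Alternatives are given in the closing section.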

Additional observations from a re-analysis of the deposited data

How the results depend on the processing

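The count of 4 genes with an IDR summit was 3 with a promoter of 500 bp upstream and 100 bp downstream (npp-12 lost), 4 with 2000 and 500 bp, 4 with the start of any transcript, 4 with interval overlap, 4 with each summit counted once, 3 (npp-13 lost) with only the IDR peaks above the median signal, and 5 without replicate 1 or without replicate 2, where the 690 strongest peaks of the other replicate stood in for the IDR list. The fifth gene was imb-1 without replicate 1 and npp-3 without replicate 2. When each summit went to the nearest gene start only, 2 genes were left, npp-13 and npp-8, since npp-6 and npp-12 are farther than a neighbour. By construction that rule also lowered the other counts, to 10 in the pooled list, 19 in replicate 1 and 9 in replicate 2, where 12.2, 19.7 and 12.7% of other genes were counted. A −log10 q of at least 2 left 6, 9 and 5 genes in these 3 lists (3.69, 4.1 and 2.8% of other genes). The share of other genes with an IDR summit was 2.45% with the narrower promoter, 4.02% with the wider and 2.11% with nearest starts. That share was 3.35% with transcript starts, 3.38% with interval overlap and 1.87% with the stronger IDR peaks. Without replicate 1 it was 2.97%, and without replicate 2 it was 3.07%. In the pooled, replicate 1 and replicate 2 lists the counts were 17, 25 and 14 with the narrower promoter (10.5, 15.8 and 10.5% of other genes), 23, 30 and 20 with the wider (23.8, 37.6 and 25.7%), and 19, 29 and 17 with transcript starts (17.9, 27.5 and 18.5%). No paired analysis was possible because the study holds 1 group. Read depth is unknown, so a promoter without a summit was not shown to be unoccupied.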
